A study of Mus musculus with 4 samples.

Results

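The Hippo pathway core is described here by 10 mouse genes, chosen by symbol: the coactivator genes Yap1 and Wwtr1, the transcription factor genes Tead1, Tead3 and Tead4, the kinase genes Lats1 and Stk4, the scaffold genes Sav1 and Nf2, and the TEAD cofactor gene Vgll4. All 10 were found among the 30627 genes named on the array, each with 1 probe set of its own, and all 10 passed the filter that kept 18380 genes. Liver RNA was measured on 4 single-channel arrays, 1 for each combination of genotype and time, in a study of the part YAP plays as the liver recovers from acetaminophen. The wildtype arrays held liver from male fasted mice with a floxed Yap1 gene, at 0 h without acetaminophen and 24 h after a 300 mg/kg intraperitoneal overdose. The YAP-KO arrays held liver from male fasted YAP knockout mice at the same times and dose. Each array held RNA pooled from 3 mice, so the spread between mice is hidden, and 1 array per group gives no replicate error for any difference between arrays. The sources used here do not give the deleted exons, the Cre driver, the cell types that lost Yap1 or the ages of the mice. No array of untreated mice at 24 h was used here, so the overdose cannot be told apart from time, handling or feeding. The word response below stands for the whole difference between 24 h and 0 h.

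The Hippo pathway is a kinase relay that holds back organ growth. The kinases MST1 (the product of Stk4) and MST2, bound to the scaffold protein SAV1, activate LATS1 and LATS2, and merlin (the product of Nf2) brings LATS kinases to the cell membrane where they are activated. LATS kinases phosphorylate YAP and its paralog TAZ, which are then kept in the cytoplasm by 14-3-3 proteins or degraded. Unphosphorylated YAP and TAZ enter the nucleus and bind TEAD transcription factors, which find the DNA site, while VGLL4 competes with them for TEAD. In mouse liver, loss of the upstream kinases or of merlin enlarges the organ, and YAP is more abundant in bile duct cells than in resting hepatocytes. The arrays measured RNA and give no reading of phosphorylation or of where the proteins were.

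Values are log2 expression values of probe sets, as inferred from their range, so that a difference of 1 is 2-fold. The array medians over all 65956 probe sets lay between 4.32 and 4.47. Over the kept genes they were 6.43 on both 0 h arrays, 6.69 at 24 h for wildtype and 6.58 for YAP-KO. The hepatocyte genes Alb, Apoa1, Ttr and Serpina1c were at or within 0.01 of the array maximum (19.83 to 19.93) on all 4 arrays, which accords with the tissue label. The core genes lay far under that ceiling, at 4.53 to 9.90. A level is compared between arrays and never between genes, because probe sets differ in brightness at equal RNA amounts.

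Yap1 (Entrez gene 22601), which encodes the coactivator that the knockout removes, read 7.54 (wildtype) and 6.31 (YAP-KO) at 0 h. At 24 h the readings were 8.24 (wildtype) and 6.01 (YAP-KO). Both YAP-KO arrays were below both wildtype arrays, so the labels and the targeted gene pointed the same way. The YAP-KO value was 2.35-fold lower at 0 h and 4.69-fold lower at 24 h. The wider gap at 24 h came from both sides, as the wildtype response was 0.70 and the YAP-KO response -0.30. In a whole-liver extract, fewer cells with Yap1 RNA and less Yap1 RNA per cell cannot be told apart, and the probe set may also read transcript outside the deleted part. Among all kept genes, the YAP-KO minus wildtype difference of Yap1 stood at percentile 0.460 at 0 h and 0.762 at 24 h, counted from the lowest.

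Wwtr1 (Entrez gene 97064) encodes TAZ, the paralog that shares TEAD partners with YAP. It read 5.75 (wildtype) and 5.82 (YAP-KO) at 0 h, then 6.73 (wildtype) and 6.35 (YAP-KO) at 24 h. Both 24 h arrays were above both 0 h arrays, and the YAP-KO minus wildtype difference was 0.07 at 0 h and -0.38 at 24 h. Its response was 0.98 (1.97-fold) in wildtype and 0.53 (1.44-fold) in YAP-KO, percentiles 87.1 and 84.3 of all kept genes. Among the 10 genes it had the highest response in YAP-KO. At neither time was it as much as 2-fold different between the genotypes, and at 0 h the knockout array gave no higher Wwtr1 value beyond 0.07.

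**Figure D1:**
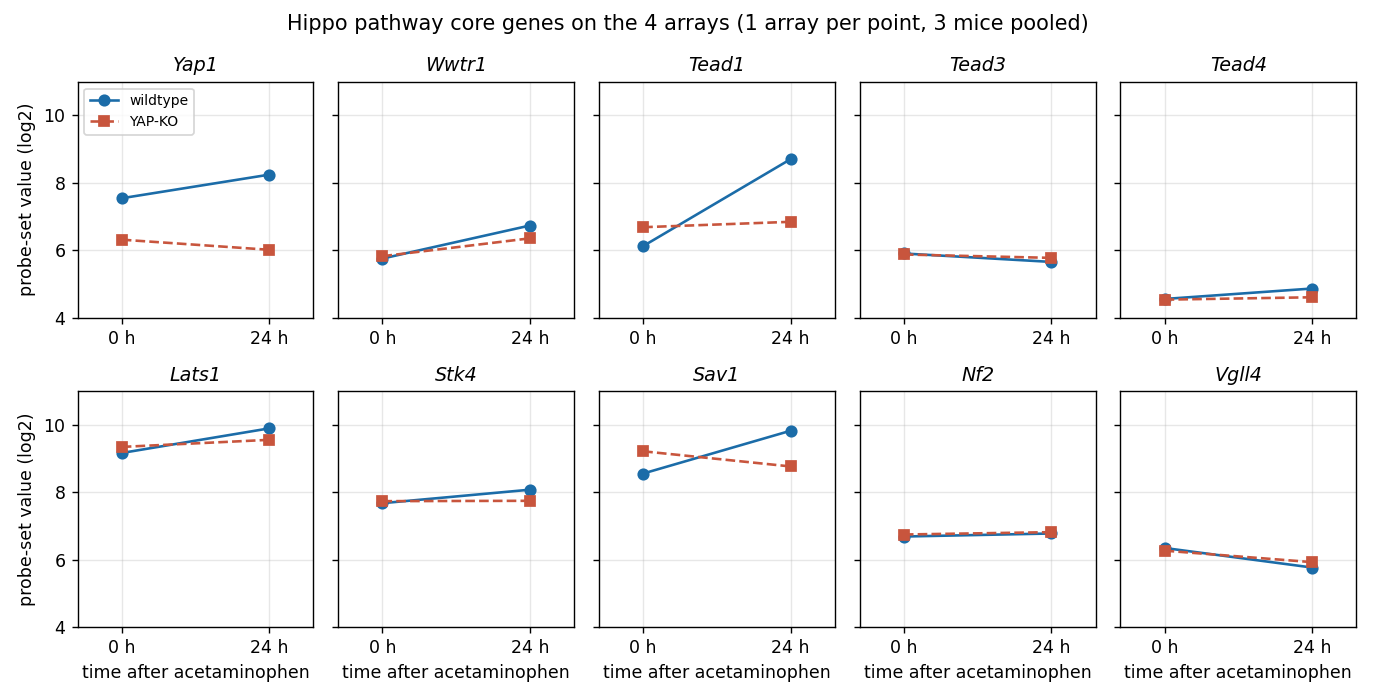
Probe-set values (log2) of the 10 core genes at 0 h and 24 h after acetaminophen, with 1 array (3 mice pooled) per point, wildtype as circles with solid lines and YAP-KO as squares with dashed lines. The YAP-KO line of Yap1 lies below the wildtype line at both times, the wildtype value of Tead1 is 6.12 at 0 h and 8.70 at 24 h, and the lines of Sav1 cross; heights are comparable within a panel and not between panels.

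The TEAD genes differed from one another. Tead1 (Entrez gene 21676), which encodes a DNA-binding partner of YAP and TAZ, read 6.12 (wildtype) and 6.68 (YAP-KO) at 0 h. At 24 h the readings were 8.70 (wildtype) and 6.84 (YAP-KO). The wildtype 24 h array stood alone, with the other 3 arrays between 6.12 and 6.84. The wildtype response was 2.58 (5.98-fold), percentile 98.7 of all kept genes, against 0.16 in YAP-KO, percentile 59.9. The difference between the responses was -2.42, the largest in size among the 10 genes. The YAP-KO minus wildtype difference was 0.56 at 0 h and -1.86 at 24 h, where YAP-KO was 3.63-fold lower.

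Tead3 and Tead4 encode TEAD factors with the same type of DNA-binding domain. Tead3 read 5.90 (wildtype) and 5.87 (YAP-KO) at 0 h, and 5.65 and 5.77 at 24 h. All 4 of its values lay within 0.25, with both 24 h values under both 0 h values. Tead4 read 4.55 and 4.53 at 0 h, then 4.86 and 4.60 at 24 h. It was the dimmest of the 10, at level percentile 13.5 of the kept genes and close to the filter level of 4.32. No detection call was used, so it may have been unchanged or simply undetected. Tead2, the remaining member of the family, was below the filter, with values from 3.95 to 4.15. Of the 4 TEAD genes, Tead1 was the only one with a 2-fold difference in any comparison of a pair of arrays.

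Vgll4 encodes a cofactor that occupies TEAD in place of YAP. It read 6.35 (wildtype) and 6.27 (YAP-KO) at 0 h, and 5.77 and 5.93 at 24 h. Both 24 h arrays were below both 0 h arrays, with responses of -0.58 in wildtype and -0.34 in YAP-KO. These stood at percentiles 12.2 and 13.0 of all kept genes. In the values as deposited, Vgll4 and Tead3 were the core genes that were lower at 24 h in both genotypes. Nf2 joined them after centring the arrays (-0.17 in wildtype and -0.08 in YAP-KO) and after quantile normalization (-0.13 and -0.03). Vgll3, a cofactor gene related to Vgll4, was below the filter, with values from 4.01 to 4.31.

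Among the kinase genes, Lats1, whose product phosphorylates YAP and TAZ, read 9.17 (wildtype) and 9.35 (YAP-KO) at 0 h. It read 9.90 and 9.56 at 24 h. Both 24 h values were above both 0 h values, and the wildtype 24 h array was the highest. Its response was 0.73 in wildtype and 0.21 in YAP-KO. Stk4, encoding the kinase MST1 that acts on LATS, read 7.68 and 7.74 at 0 h, then 8.08 and 7.75 at 24 h. Here the other 3 arrays lay within 0.07 of each other, and the YAP-KO minus wildtype difference at 24 h was -0.33.

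Sav1 (Entrez gene 64010), which encodes the scaffold that joins MST kinases to LATS, had responses of opposite sign in the genotypes. It read 8.56 (wildtype) and 9.22 (YAP-KO) at 0 h, and then 9.83 (wildtype) and 8.77 (YAP-KO) at 24 h. The highest and the lowest of its 4 values were both wildtype. Its response was 1.27 (2.41-fold) in wildtype and -0.45 in YAP-KO, percentiles 91.7 and 9.13 of all kept genes. The YAP-KO minus wildtype difference was 0.66 at 0 h (percentile 97.3) and -1.06 at 24 h (percentile 5.06). The size of its wildtype response depended on which 0 h array served as baseline, being 0.61 against the YAP-KO 0 h array. With that baseline 16.9% of all kept genes differed 2-fold in wildtype, and the core genes past 2-fold were Tead1 (2.02) and Yap1 (1.93). That baseline crosses the genotypes, so the Yap1 value includes the 0 h genotype difference of the targeted gene.

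Nf2, encoding merlin, read 6.69 (wildtype) and 6.75 (YAP-KO) at 0 h, and 6.78 and 6.82 at 24 h. The whole range over the arrays was 0.13, the narrowest of the 10 genes. The sign of its wildtype response was not stable, at 0.09 as deposited, -0.13 after quantile normalization and -0.17 after centring. The core scaffold genes thus ranged from the narrowest spread, that of Nf2, to the 1.27 of Sav1.

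**Figure D2:**
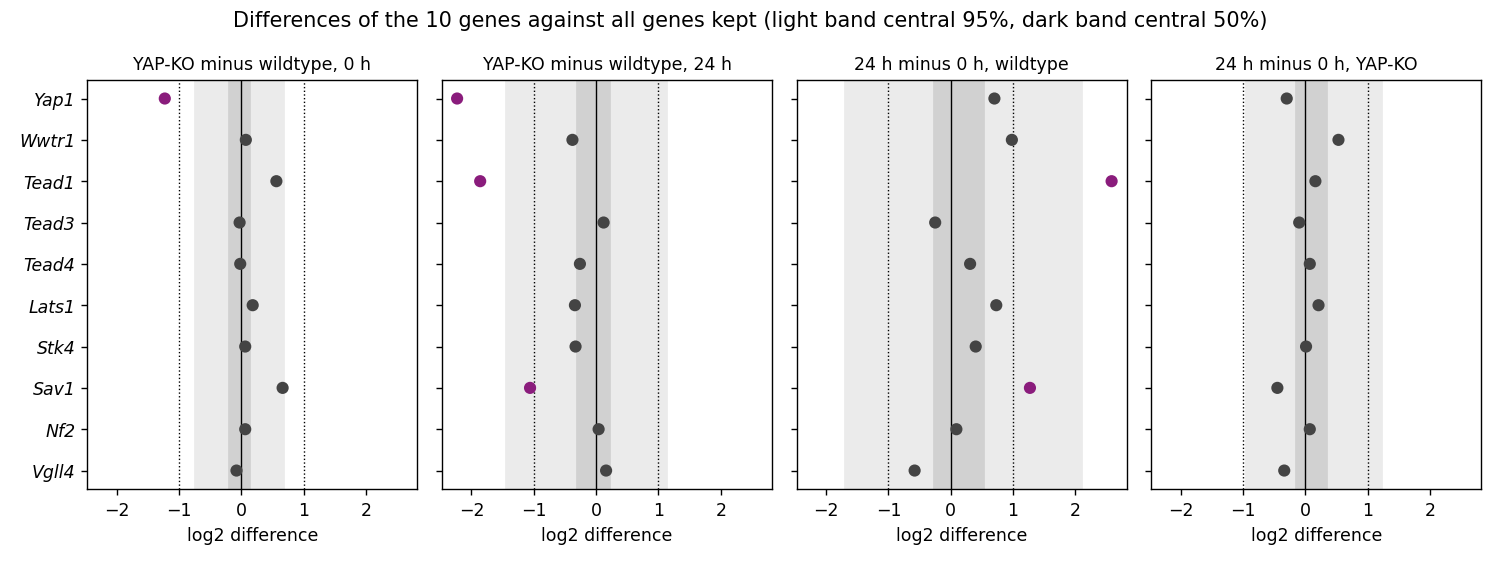
Log2 differences of the 10 core genes in the 4 comparisons of a pair of arrays, as points, with purple for 2-fold or more and dotted lines at 2-fold. The grey bands hold the central 50% and 95% of all 18380 kept genes; Yap1 lies outside the wider band in both genotype comparisons, and Tead1 lies outside it at 24 h between the genotypes and in the wildtype response.

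As a group, most core genes read highest on the wildtype 24 h array. In the wildtype response 2 of 10 genes were 2-fold higher (Tead1 and Sav1) and 0 were 2-fold lower, where 18.6% of all kept genes differed 2-fold in either direction, 12.7% higher. The count was thus near the background. The median response was 0.55 over the 10 genes and 0.07 over all kept genes. At 1.5-fold, 5 of 10 core genes were higher, which added Yap1, Wwtr1 and Lats1, against 23.2% of all kept genes. That count was 3 after centring (15.9% of all kept genes) and 3 after quantile normalization (18.5%), with Yap1 at 0.44 and 0.455 and Lats1 at 0.47 and 0.525, both under 1.5-fold. Centring each array on the median of the kept genes lowered every wildtype response by 0.26. The median response was then 0.29 over the 10 genes and -0.19 over all kept genes.

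In the YAP-KO response 0 of 10 genes differed 2-fold, where 6.94% of all kept genes did, and 0 of 10 differed 1.5-fold, where 19.5% did. After centring, 1 of 10 differed 1.5-fold, Sav1 at -0.60, where 18.8% of all kept genes did. The median was 0.04, against 0.07 over all kept genes. The values ran from -0.45 for Sav1 to 0.53 for Wwtr1. The wildtype and YAP-KO responses share no array. Against the wildtype 0 h array, 1 core gene reached 2-fold in YAP-KO at 24 h, Yap1 at -1.53, and 8.44% of all kept genes did. That Yap1 value includes the 0 h difference between the genotypes.

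Between the genotypes at 0 h, 1 of 10 genes differed 2-fold, the targeted gene Yap1, where 1.89% of all kept genes did and 0.881% were lower in YAP-KO. At 1.5-fold the 2 genes were Yap1, lower, and Sav1, higher, against a background of 8.3%; quantile normalization added Tead1, at 0.60, against 8.69%. Leaving Yap1 aside, the differences ran from -0.08 for Vgll4 to 0.66 for Sav1. At 24 h, 3 of 10 genes differed 2-fold, the targeted gene Yap1, Tead1 and Sav1, all lower in YAP-KO. Of all kept genes 9.0% differed and 5.75% were lower. A lower Yap1 value follows from the design, so its place in both genotype counts tells nothing of the other core genes. The median at 24 h was -0.34, against -0.02 over all kept genes. Sav1 was on the edge of this count, at -0.95 after centring and -0.94 after quantile normalization.

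The difference between the 2 responses was 2-fold or more for 3 of 10 genes. They were Tead1 at -2.42, Sav1 at -1.72 and the targeted gene Yap1 at exactly -1.0. Of all kept genes 13.2% reached 2-fold and 7.51% did so in this direction. Yap1 was under 2-fold after centring (-0.89) and after quantile normalization (-0.80). For the other 7 genes it lay between -0.52 for Lats1 and 0.24 for Vgll4. The wildtype 24 h array gave the highest value for 7 of 10 core genes, against 38.3% of all kept genes. The exceptions were Tead3 and Vgll4, highest in wildtype at 0 h, and Nf2, highest in YAP-KO at 24 h.

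The only fit with a residual degree of freedom was additive, genotype plus time over the 4 arrays in limma, and its 1 residual degree of freedom is the interaction between genotype and time. It called 0 of 18380 genes for genotype and 0 for time at a Benjamini-Hochberg adjusted p under 0.05 (0.0% in both). At an unadjusted p under 0.05 the counts were 434 for genotype and 2820 for time. In that limma fit Yap1 was lower in YAP-KO by a mean log2 difference of -1.73 ± 0.33 (SE), with an unadjusted p of 0.0120 and an adjusted p of 0.997, and lower in 2 of 2 comparisons. Wwtr1 had a limma time difference of 0.755 ± 0.214 (SE), with an adjusted p of 0.308, and was higher at 24 h in 2 of 2 genotypes. Tead1 had a limma time difference of 1.37 ± 0.70 (SE), with an adjusted p of 0.431. Its error was the largest of the 10, since the unequal responses of the genotypes are what the fit takes as error.

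Promoter sequence was looked at because several core genes were higher together on the wildtype 24 h array and because TEAD factors bind a short DNA element. The element was searched as CATTCC on either strand (GGAATG on the other) in RefSeq windows of GRCm38.p6 from 250 bases before to 50 after each start site. Of the 10 genes, 8 had a window, and Tead1 and Tead4 had none in the table used. The element was found for 5 of the 8 genes (Yap1, Wwtr1, Sav1, Vgll4 and Tead3) and not for Lats1, Stk4 or Nf2. Of all 32851 windows, 14.7% held it, and 16.6% of all 27025 genes held it in at least 1 window. Some core genes have several windows, 12 in all, which gives them more chances to match. The stretches shown are the whole upstream part outside the annotated gene for both coactivator genes, and 30 bases around the match for Sav1 and Vgll4, whose responses had opposite signs in wildtype. Those of Sav1 and Vgll4 lie before the start site of their window but inside the annotated span of the gene. The stretches are on the minus strand, 5′ to 3′, from chr9:8004639-8004846 for Yap1, chr3:57575911-57576160 for Wwtr1, chr12:69987091-69987120 for Sav1 and chr6:114969268-114969297 for Vgll4. Capitals mark the element.
Yap1: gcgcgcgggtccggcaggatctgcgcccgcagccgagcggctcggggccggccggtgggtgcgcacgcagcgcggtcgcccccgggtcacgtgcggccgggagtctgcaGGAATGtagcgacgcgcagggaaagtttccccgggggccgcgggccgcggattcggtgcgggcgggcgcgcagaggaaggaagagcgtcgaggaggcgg
Wwtr1: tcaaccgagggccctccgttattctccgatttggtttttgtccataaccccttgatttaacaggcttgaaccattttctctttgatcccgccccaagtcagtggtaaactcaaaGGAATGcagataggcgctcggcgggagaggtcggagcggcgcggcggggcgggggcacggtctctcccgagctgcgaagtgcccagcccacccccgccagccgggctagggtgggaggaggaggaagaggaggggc
Sav1: cggctttcccagCATTCCcagcggcgcggg
Vgll4: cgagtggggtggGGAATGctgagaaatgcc
In Sav1 the element reads CATTCC on the gene's strand, and in the other 3 it reads GGAATG. Whether the element bears on any response was not tested, and Tead1, with the highest wildtype response of the 10 genes, had no window. A match is a description of letters in a window, and no binding was measured.

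Other Hippo pathway genes were read from a list of 54, of which 50 had a probe set of their own and 44 passed the filter. The kinase gene Stk3, encoding MST2, had none of its own and was not analysed here. In wildtype, 7 of 44 had a response of 2-fold or more, all higher, and in YAP-KO 0 of 44 did. The medians were 0.44 in wildtype and 0.08 in YAP-KO. The wildtype 24 h array was the highest for 30 of these 44 genes. The background shares are those given above for the same comparisons, and 7 of 44 was near the 12.7% of all kept genes that were 2-fold higher.

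Of the 7, the LIM protein gene Ajuba, whose product inhibits LATS kinases and which is also used as a YAP target, had the highest wildtype response. It read 5.04 (wildtype) and 5.01 (YAP-KO) at 0 h, and 8.35 and 5.76 at 24 h. Its wildtype response was 3.31 (9.92-fold) and its YAP-KO response 0.75. The kinase gene Map4k4, whose product can activate LATS in parallel to MST kinases, had responses of 2.14 in wildtype and 0.54 in YAP-KO. Its relative Map4k5 had responses of 1.29 and -0.07. The scaffold gene Frmd6, a partner of merlin in the pathway, had responses of 1.78 and 0.21. The YAP-KO minus wildtype differences at 24 h were -2.59 for Ajuba, -1.66 for Map4k4, -0.94 for Map4k5 and -1.37 for Frmd6. These genes are named for a high value on the wildtype 24 h array, which is also the comparator here, so the choice favours a negative difference. Over all 44 genes, 4 were 2-fold lower in YAP-KO at 24 h (Ajuba, Map4k4, Frmd6 and Ywhag) and 0 were 2-fold higher, against 5.75% of all kept genes lower, and the median was -0.18.

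The remaining 3 of the 7 encode 14-3-3 proteins, which hold phosphorylated YAP in the cytoplasm among many other clients. Ywhag read 7.08 (wildtype) and 7.20 (YAP-KO) at 0 h, and 9.48 and 7.93 at 24 h. Its response was 2.40 in wildtype and 0.73 in YAP-KO. Ywhaz had responses of 1.31 and 0.62, and Ywhah of 1.06 and 0.35. At 24 h the YAP-KO minus wildtype difference was -1.55 for Ywhag, -0.33 for Ywhaz and -0.26 for Ywhah.

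The closest partners of the core kinases differed by less than 2-fold in every comparison of a pair of arrays. Lats2, the paralog of Lats1, read 6.54 on both 0 h arrays, 6.92 (wildtype) and 6.50 (YAP-KO) at 24 h. Mob1a, whose product binds and activates LATS, read 9.06 and 8.80 at 0 h, then 9.42 and 9.47 at 24 h. Mob1b read 9.28 and 9.0 at 0 h, then 8.89 and 9.06 at 24 h, so that the 2 MOB1 genes had wildtype responses of opposite sign (0.36 and -0.39). The lowest wildtype response among the 44 was that of Taok3, encoding a kinase that acts on MST, at -0.51. Of the 44 genes, 1 differed 2-fold between the genotypes at 0 h. It was the angiomotin gene Amot, at 1.25 on its brighter probe set and 0.49 on its other one, so its probe sets disagree on this count.

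**Figure D3:**
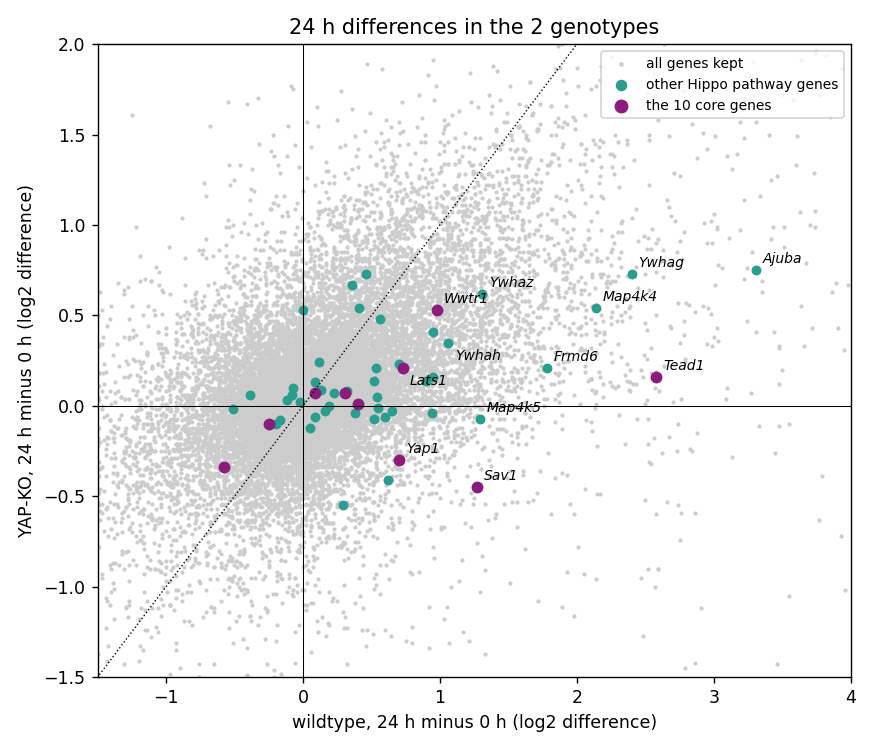
Log2 difference between 24 h and 0 h in wildtype (horizontal) and YAP-KO (vertical) for the 10 core genes (purple), 44 other Hippo pathway genes (green) and all kept genes (grey), with the dotted line marking equal responses. Tead1, Sav1, Ajuba, Map4k4, Frmd6 and Ywhag lie far to the right of the line; grey points beyond the axis limits are not shown.

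As readouts of YAP and TAZ activity, Ccn1, Ccn2 and Ankrd1 were each higher at 24 h in both genotypes. Their responses in wildtype were 5.72, 3.75 and 4.57, and in YAP-KO 2.22, 1.96 and 2.98. The YAP-KO minus wildtype differences were -0.95, 0.06 and 0.23 at 0 h. At that time Ccn2 read 5.73 (wildtype) and 5.79 (YAP-KO), and Ankrd1 read 4.78 (wildtype) and 5.01 (YAP-KO). Neither gene read lower in YAP-KO at 0 h, but Ankrd1 was close to the filter level and had little room to do so. At 24 h the YAP-KO minus wildtype differences of the readouts were -4.45, -1.73 and -1.36. The core gene most like them in being higher at 24 h in wildtype was Tead1, but its YAP-KO response of 0.16 was unlike theirs.

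The genes whose profile lay nearest to that of Yap1 were found by Euclidean distance over the 4 arrays, each gene centred on its own mean, among 12175 genes. They were Acot1, encoding an acyl-CoA thioesterase (distance 0.495), the transcriptional repressor gene Bhlhe40 (0.654), Egln3, encoding a prolyl hydroxylase of the hypoxia pathway (0.686), Pctp, encoding a phosphatidylcholine transfer protein (0.697), and the peroxisomal enzyme gene Ehhadh (0.710). Acot1 read 8.95 (wildtype) and 7.48 (YAP-KO) at 0 h, and 9.0 and 7.32 at 24 h. Acot1 has close paralogs that the array may not separate. Each of the 5 was lower in YAP-KO at both times, as it had to be to resemble Yap1, and none was a member of the Hippo lists.

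Markers of other liver cell types also differed between the arrays. Neutrophil markers (8 of 8 measured) had mean levels of 5.29 (wildtype) and 5.42 (YAP-KO) at 0 h, and of 7.34 and 6.13 at 24 h. Of them 5 were 2-fold lower in YAP-KO at 24 h and 0 higher, where 5.75% of all kept genes were 2-fold lower. Ly6g (0.53) and Camp (0.18) were higher in YAP-KO by less than 2-fold. Kupffer cell markers (7 of 7) had means of 8.20 and 8.15 at 0 h, and 9.44 and 8.59 at 24 h. Of these, 3 of 7 were 2-fold lower in YAP-KO at 24 h, beside the same share of 5.75%. Macrophage and monocyte markers (8 of 8) had means of 6.07 and 5.92, then 8.71 and 8.34. The 24 h gap came from Cd14, at 10.12 in wildtype and 6.39 in YAP-KO, and without it the means at 24 h were 8.51 and 8.62. In that list 3 of 8 markers were higher in YAP-KO at 24 h, Ly6c2 by 0.97, Ccr2 by 0.46 and Cx3cr1 by 0.43. The other 5 had negative differences, -3.73 for Cd14, -0.98 for Itgam and -0.04 to -0.01 for Chil3, Cd68 and Lyz2. The median difference was -0.015. Sinusoidal endothelial markers (9 of 9) had means of 8.77 and 8.87, then 9.94 and 9.39. Here the 24 h gap came from Lyve1 (-3.88) and Cdh5 (-1.49), and without these genes the means were 8.95 and 9.02. In that list 4 of 9 markers were higher in YAP-KO at 24 h, and the median difference was -0.08. The median difference at 24 h was -1.34 for neutrophil markers, with 6 of 8 lower in YAP-KO, and -0.58 for Kupffer cell markers, with 7 of 7 lower. The part of cell composition in the Tead1, Sav1 and Yap1 values was not tested.

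Stellate cell and fibroblast markers (11 of 11) had means of 7.03 and 7.08 at 0 h and 7.48 and 7.51 at 24 h. These means hide YAP-KO minus wildtype differences at 24 h of 1.16 for Lrat and -1.21 for Dcn. In that list 6 of 11 markers were higher in YAP-KO at 24 h and 5 lower, with a median difference of 0.10. Acta2 had the largest responses of the list, 3.07 in wildtype and 2.96 in YAP-KO. Cholangiocyte markers (6 of 9 measured) had means of 4.74 and 4.76 at 0 h, and 5.14 and 4.93 at 24 h. Sox9 was the 1 marker of that list with a 2-fold response in either genotype, at 2.53 in wildtype and 1.47 in YAP-KO. Krt19 and Krt7, keratin genes that define bile duct cells, lay between 4.30 and 4.56 on all arrays. They were close to the filter level of 4.32 and had little room to read lower. Neither was higher at 24 h by more than 0.01 in either genotype. Hepatocyte markers (7 of 8 measured) had means of 17.85 and 17.92 at 0 h, and 17.56 and 17.83 at 24 h, but Alb, Apoa1, Ttr and Serpina1c were within 0.01 of the array maximum and could not show a difference. The other 3 were lower at 24 h in wildtype, with responses of -0.90 for Hnf4a, -0.76 for Cps1 and -0.62 for Asgr1, and all 3 were higher in YAP-KO than in wildtype at 24 h, by 0.25, 0.77 and 1.02. In YAP-KO their responses were -1.45, 0.04 and 0.58, and Cps1 was itself within 0.03 of the maximum on the other 3 arrays. T, B and NK cell markers (7 of 8 measured) had means from 3.84 to 4.01, and 5 of the 7 were below the filter.

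**Figure D4:**
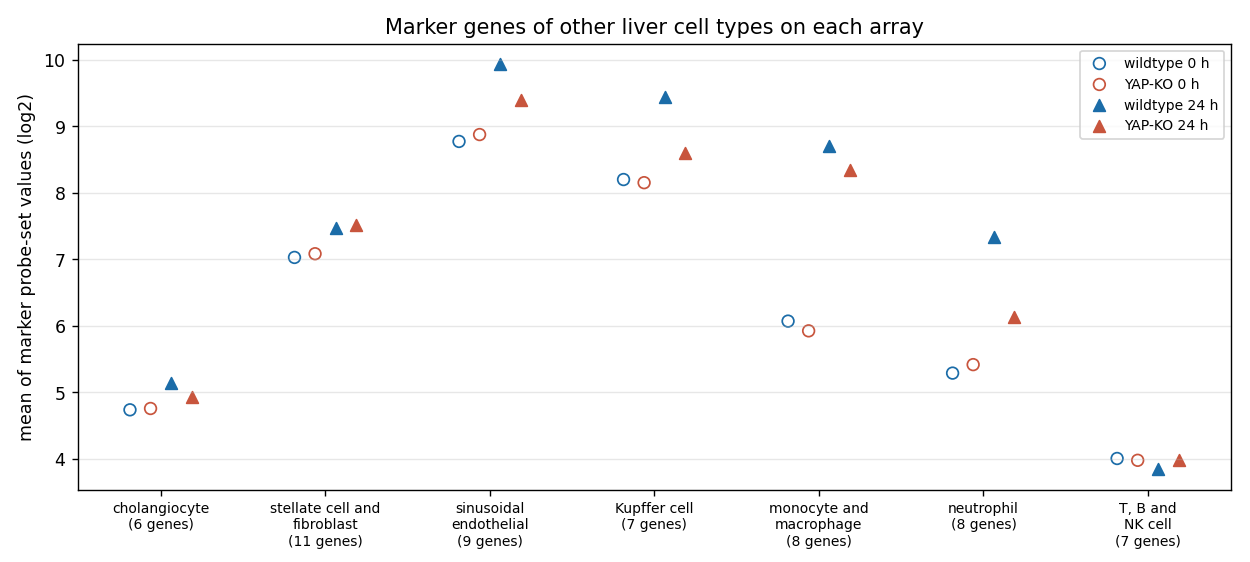
Mean probe-set value (log2) of the marker genes of 7 liver cell types other than hepatocytes on each of the 4 arrays, with open circles for 0 h, filled triangles for 24 h, blue for wildtype and red for YAP-KO. The wildtype 24 h triangle is the highest point for neutrophil, monocyte and macrophage, Kupffer cell and sinusoidal endothelial markers. For monocyte and macrophage markers this rests on Cd14, and for endothelial markers on Lyve1 and Cdh5. The stellate cell and fibroblast triangles are close together, but Lrat and Dcn differed between the genotypes at 24 h in opposite directions.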

How the data were processed

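Total liver RNA, extracted with Trizol and labelled with biotin per the labels' protocols, was measured on 4 arrays. The log2 values were deposited as 1 table by the authors; the log base was inferred from the values (2.24 to 19.93), and no source used here states summarisation, background correction or normalization. The number of arrays limits the precision of every value. Genes were assigned to probe sets through the platform annotation, with symbols updated through Entrez identifiers to RefSeq GRCm38.p6: 31080 had 1 gene, 1670 several and 33206 none. Genes took the brightest of their own probe sets, and a gene was kept if its mean over the arrays reached the 40th percentile (4.32). Differences are between single arrays and have no test; sizes are read at 2-fold. The additive fit used limma 3.58.1 in R 4.3.3. It was tried on simulated data with independent errors and no interaction, for bias and for the rate of small p-values without a difference. That trial does not show how well the fit finds changes on these arrays. The text names the core genes, fixed readouts and partners, other listed genes at 2-fold in any comparison of a pair of arrays, and the 5 profiles nearest to Yap1; genes below the filter were not given folds. Alternatives were quantile normalization, centring, probe-set rule, filter, fold size and baseline array, with 1.5-fold counts under both scalings added after seeing the data. Members and lists were chosen with earlier results of these data known.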

Additional observations from a re-analysis of the deposited data

Results flagged for a closer look

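With 1 array per group, no difference below was tested. The 24 h minus 0 h difference had opposite signs in wildtype and YAP-KO for Yap1 (difference of responses -1.0), Sav1 (-1.72), Lats2 (-0.42), Mob1b (0.45), Map4k5 (-1.36) and Amot (-1.03). Here the YAP-KO response was only -0.04 for Lats2, 0.06 for Mob1b and -0.07 for Map4k5. Centring lowered every YAP-KO response by 0.15, so such signs depend on the scaling. Amot is given on its brighter probe set. Its other one had a difference of responses of -0.55, from 0.16 in wildtype and -0.39 in YAP-KO. The YAP-KO minus wildtype difference had opposite signs at 0 h and 24 h for Tead1 (-2.42), Sav1, Frmd6 (-1.57), Ywhag (-1.67), Map4k5, Ccn2 (-1.79) and Ankrd1 (-1.59). The same held for Wwtr1 (-0.45), Lats1 (-0.52), Stk4 (-0.39), Ywhah (-0.71), Ywhaz (-0.69), Tead3 (0.15), Vgll4 (0.24), Mob1a (0.31) and Mob1b. For most of the latter 9 genes at least 1 of the opposed differences was small, such as 0.07 for Wwtr1, 0.06 for Stk4 and -0.03 for Tead3 at 0 h. Among the genes listed before them, the 0 h difference was also small for Ccn2 (0.06) and Ywhag (0.12). Tead1 and Sav1 were higher in YAP-KO at 0 h by 0.56 and 0.66 and differed by -1.86 and -1.06 at 24 h.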

How the results depend on the processing

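Of 87 counts and medians recomputed under the alternatives, 80 stayed within 1.5 times the count, or within the residual SD of the additive fit for a median. Many of the 80 could not move, so their number is no measure of stability. Each core gene had a single probe set and passed the filter, so the probe-set rules and dropping the filter returned the same core values. The 87 also include the additive fit, which called 0 genes throughout. Among the 80, centring and quantile normalization each took the 24 h genotype count and the count for the difference of responses from 3 to 2. At 1.5-fold in place of 2-fold, the wildtype response counted 5 genes and the 0 h genotype comparison 2. Counts at 1.5-fold under both scalings, and marker means without single genes, were added after seeing the data: the count of core genes higher in wildtype went from 5 to 3 under either scaling, and the YAP-KO count from 0 to 1 under centring. Centring the arrays took the core median of the wildtype response to 0.29 and the median of all kept genes to -0.19. With the wildtype 0 h array as baseline for YAP-KO at 24 h, 1 gene counted, Yap1 at -1.53. With the YAP-KO 0 h array as baseline for wildtype at 24 h, 2 genes counted, Tead1 (2.02) and Yap1 (1.93). Sav1 was then at 0.61. These baselines cross the genotypes, so both Yap1 values include the 0 h genotype difference of the targeted gene and are not responses. The additive fit called 0 genes for either term under every normalization, probe-set rule and filter tried. No paired analysis was possible because each group has 1 array, so the groups share a single replicate number. For the same reason no replicate could be left out. Dim genes such as Tead4 have no known detection limit.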
